A study of Mus musculus with 14 samples.

Results

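The p38 kinases and the kinases directly upstream of them were followed through open-chromatin maps of mouse neural stem cells. The genes were Map2k3, Map2k4, Map2k6, Mapk11, Mapk12, Mapk13 and Mapk14, which are 7 of the 21883 protein-coding genes in the gene table. Every deposited peak that overlapped one of these gene bodies or lay within 50 kb of one was taken, and overlapping peaks were merged. This gave 64 regions of the 127850 merged regions in the whole series. The genes were chosen by the presence and rank of peaks in ZR, the fusion cells, against EV, the empty-vector cells: a strong region gained in that contrast lies inside Map2k6. Values of ZR against EV are therefore given as a description and support nothing.

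The p38 proteins are mitogen-activated protein kinases that are switched on by cell stress and inflammatory cytokines. Map2k3 and Map2k6 encode MKK3 and MKK6, dual-specificity kinases that phosphorylate p38, and Map2k4 encodes MKK4, which phosphorylates JNK and also p38. Mapk14, Mapk11, Mapk12 and Mapk13 encode p38 alpha, beta, gamma and delta. In the brain the pathway is best known from cytokine production by microglia and from neuronal stress responses.

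The 14 libraries formed 7 pairs, each library made from 50000 cells by ATAC-seq and deposited as a peak list. The assay tags accessible DNA with adapters through the Tn5 transposase. ZR denotes neural stem cells labelled ZFTA-RELA, a fusion of the zinc finger protein ZFTA with the NF-kB subunit RELA that drives supratentorial ependymoma, with a PBS/Vehicle label. EV denotes cells labelled Empty Vector, of which replicate 1 is labelled DMSO/Vehicle and replicate 2 PBS/Vehicle. ZR_GSK343 denotes ZFTA-RELA cells given GSK343, an inhibitor of the histone methyltransferase EZH2, at 10 µM for 96 h. ZR_dmCitra denotes ZFTA-RELA cells titled dmCitra and given citraconate, described by the submitters as an ACOD1 antagonist, at 10 mM. ZR_DMSO denotes ZFTA-RELA cells titled DMSO but carrying a PBS/Vehicle label. Citraconate_50K denotes a second library series of ZFTA-RELA cells given 10 mM citraconate, and DMSO_50K denotes its controls, which carry an Empty Vector label and a DMSO/Vehicle label. In the second series treatment and cell-line label therefore cannot be told apart. The labels give neither the citraconate time of each library nor the promoter and clones behind the fusion line. Cells were grown with EGF and basic FGF. Replicates are not described as separate cultures, so p-values measure only the spread between these libraries, which may be technical.

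List length ran from 12554 to 60472 peaks, and the lists do not show read depth. The 2 ZR_DMSO lists had the shortest peaks (medians 226 and 186 bp), while medians elsewhere lay between 260 and 533 bp. ZR_GSK343 replicate 1 held 19513 peaks, against 57634 in replicate 2. Of 8 neural stem cell markers, those with a gene-start peak in both libraries numbered 3 in ZR, 6 in EV, 3 in ZR_GSK343, 3 in ZR_dmCitra, 1 in ZR_DMSO, 2 in Citraconate_50K and 3 in DMSO_50K. Vim had one in both libraries of all 7 groups, Sox2 and Sox1 had one in both libraries of EV alone, and Nes and Pax6 had one in both libraries of no group. Markers of other cell types, counted in the same way, also numbered most, or level with the most, in EV. In EV and ZR they were 2 and 1 for neurons, 1 and 0 for oligodendrocytes and 1 and 1 for astrocytes. For microglia they were 1 and 0, and for endothelial and mesenchymal cells 1 and 0. A start was annotated for 4 of 4 neuron, 1 of 4 oligodendrocyte and 3 of 4 astrocyte markers. The same held for 3 of 5 microglia and 2 of 5 endothelial and mesenchymal markers. The DMSO_50K libraries went against their Empty Vector label. In their strongest 12390 peaks they had a peak at 24.4% and 26.0% of the regions gained in ZR against EV, as ZR_dmCitra did at 27.6% and 25.7%. They had one at 1.52% and 1.78% of the regions lost in ZR against EV, against 21.8% and 20.7% in the EV libraries, which helped to choose those regions.

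Sequences around gene starts are shown for the members whose start carries a result below. They are RefSeq promoter windows of GRCm38.p6, the same coordinates as mm10, from 250 bases before to 50 bases after an annotated start, written 5′ to 3′ on the gene's strand. All 7 genes matched, with 11 windows between them. Capitals mark matches, on either strand, to an AP-1 motif (TGANTCA), a cAMP response element (TGACGTCA), the consensus NF-kB motif or a GC box (GGGCGG), and no match shown overlapped another. The first 2 windows are the outermost start of Map2k6, chr11:110398852-110399151, plus strand, and its start 80.2 kb further in, chr11:110479090-110479389, plus strand. The other windows are the first starts of Mapk14, chr17:28691092-28691391, plus strand, the start with a peak in all 14 libraries, and of Mapk13, chr17:28769067-28769366, plus strand, the first start with a peak in no library.
Map2k6 first start: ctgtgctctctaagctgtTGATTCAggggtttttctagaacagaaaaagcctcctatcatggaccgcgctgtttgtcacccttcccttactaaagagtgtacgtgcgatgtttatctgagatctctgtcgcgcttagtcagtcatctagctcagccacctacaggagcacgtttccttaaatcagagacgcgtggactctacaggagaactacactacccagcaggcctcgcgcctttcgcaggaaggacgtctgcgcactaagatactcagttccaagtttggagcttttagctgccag
Map2k6 start 80.2 kb in: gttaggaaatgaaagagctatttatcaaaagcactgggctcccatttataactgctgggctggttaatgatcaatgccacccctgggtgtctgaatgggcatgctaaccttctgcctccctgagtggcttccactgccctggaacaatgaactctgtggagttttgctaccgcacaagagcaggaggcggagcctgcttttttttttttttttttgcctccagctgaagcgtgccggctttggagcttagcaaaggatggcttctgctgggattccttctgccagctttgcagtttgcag
Mapk14 first start: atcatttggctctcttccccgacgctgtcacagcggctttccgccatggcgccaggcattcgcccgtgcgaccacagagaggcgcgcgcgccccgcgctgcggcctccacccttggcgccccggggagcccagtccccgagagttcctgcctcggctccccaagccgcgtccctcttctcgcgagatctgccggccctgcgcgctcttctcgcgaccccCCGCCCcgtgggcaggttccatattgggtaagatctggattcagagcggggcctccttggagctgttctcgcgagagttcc
Mapk13 start: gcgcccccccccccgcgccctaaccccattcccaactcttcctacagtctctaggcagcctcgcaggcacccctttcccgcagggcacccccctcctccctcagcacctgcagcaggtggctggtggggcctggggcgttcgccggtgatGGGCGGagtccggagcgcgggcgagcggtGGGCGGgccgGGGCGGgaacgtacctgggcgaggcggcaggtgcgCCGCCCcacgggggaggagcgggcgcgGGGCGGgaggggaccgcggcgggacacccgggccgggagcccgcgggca

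The AP-1 letters occurred in 1 of the 11 windows, that of the first Map2k6 start, and in 7.81% of all 32851 windows. GC boxes occurred in 6 of the 11 windows and in 35.7% of all windows. The cAMP response element and the NF-kB consensus occurred in none of the 11 windows, and in 1.79% and 8.46% of all windows. Mapk13 had 34 CG dinucleotides and 5 GC boxes in its window, and Mapk14 had 33 CG dinucleotides and 1 GC box, against a median of 7 CG dinucleotides over all windows. The CG-rich Mapk13 window was without a peak in every deposited list, while the equally CG-rich Mapk14 window had one in every list. The window 80.2 kb into Map2k6 had 4 CG dinucleotides and a peak in 12 libraries. These matches describe letters and are not evidence of binding.

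The 64 regions were spread unevenly over the members. Map2k6 had 18, of which 14 lay in its 126 kb body. Map2k4, with a 100 kb body, had 11, and Map2k3, with a 20.8 kb body, also had 11. Mapk11 had 12 and Mapk12 had 7, but these genes are neighbours on chromosome 15 and share much of their flanks. Mapk14 had 4 and Mapk13 had 1, on chromosome 17. Of all 64 regions 24 were found in 1 library only, 17 in 12 or more and 4 in all 14. Those 4 were the starts of Mapk14 and of the neighbours Zkscan6, Plxnb2 and Dennd6b. The regions nearest to the 50 kb limit lay 47.0 kb outside Mapk14, in 1 library at rank 18538, and 45.9 kb outside Mapk11, in 14 libraries at ranks 1973 to 11741. The nearest excluded ones lay 50.7 kb outside Map2k4 and 51.1 kb outside Map2k3, each in 2 libraries at ranks 31828 to 34555.

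**Figure D1:**
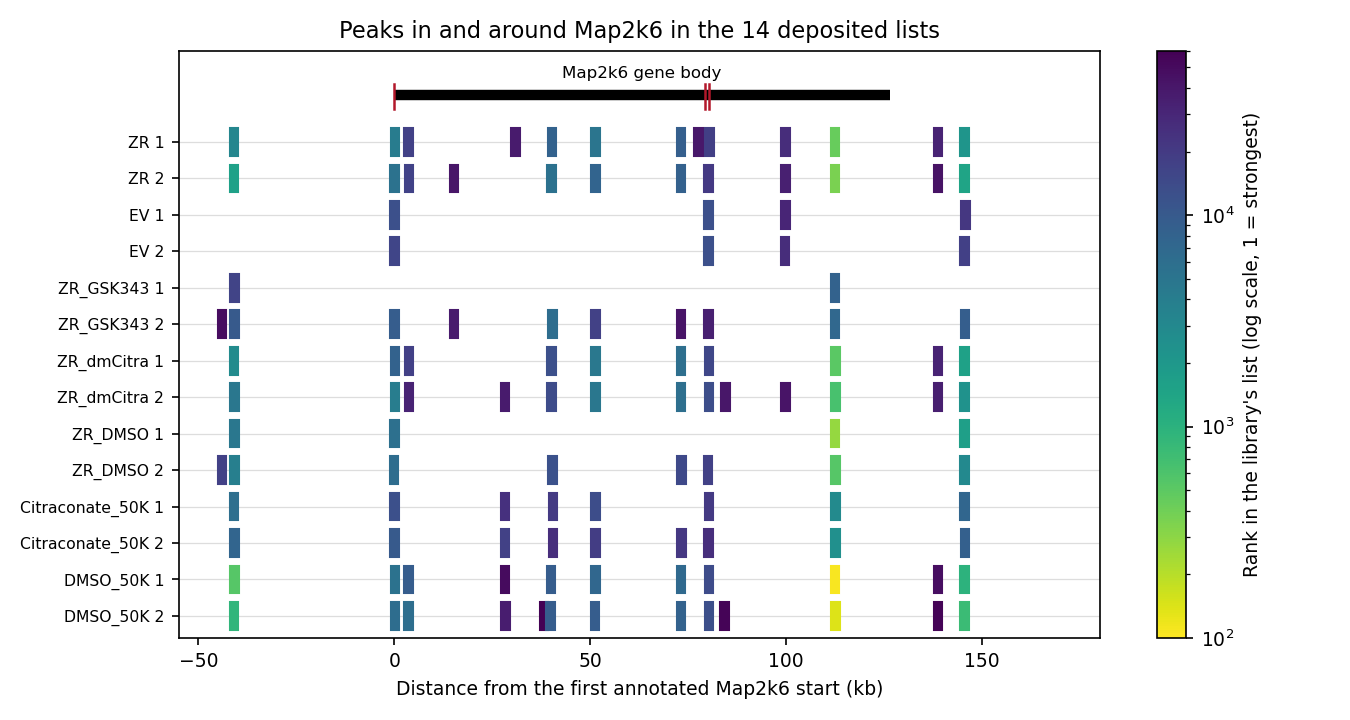
Peaks in and around Map2k6 in each deposited list, with distance from the first annotated start in kb on the x axis and 1 row per library. Each block is 1 region with a peak, drawn 2.2 kb wide whatever its true width and coloured by rank within the library (log scale); the black bar is the gene body and the red ticks are annotated starts. The EV rows have blocks at 4 regions only, while the block 112.5 kb into the gene is the strongest in every other row except ZR_GSK343 replicate 2.

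Map2k6 held the best rank of any of the 64 regions. This region lay 112.5 kb into the gene, chr11:110511048-110512256 (mm10), within the gene body and away from the annotated starts. Whether it is exonic or intronic is not given in the gene table used here. Ranks are counted from 1 for the peak with the highest −log10 q of a list, so a low number is a strong peak. Its ranks were 444 and 365 in ZR, while neither deposited EV list had a peak there. They were 8331 and 7155 in ZR_GSK343, 511 and 640 in ZR_dmCitra, and 277 and 534 in ZR_DMSO. In the second series they were 2856 and 2511 in Citraconate_50K, against 106 and 139 in DMSO_50K. DMSO_50K was thus the strongest of the 7 groups, ZR_GSK343 the weakest of the 6 that had the peak, and neither pair of ranks overlapped another group's.

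The peak sat at the same place wherever it was called. The summits of the 12 libraries fell between 112.37 and 112.61 kb from the first start, a spread of 241 bp. Peak width was 923 and 947 bp in ZR, and no EV peak existed to compare. It was 264 and 693 bp in ZR_GSK343, 1114 and 876 bp in ZR_dmCitra, and 683 and 563 bp in ZR_DMSO. It was 570 and 937 bp in Citraconate_50K, against 1032 and 1209 bp in DMSO_50K. Relative to the median width of its own list the peak was 0.8 and 2.67 times as wide in ZR_GSK343, against 3.02 and 3.03 times in ZR_DMSO. The other values were 2.05 and 2.25 in ZR, 2.43 and 2.09 in ZR_dmCitra, 1.26 and 2.08 in Citraconate_50K, and 2.12 and 2.27 in DMSO_50K. The authors' fold enrichment for this peak was 76.2 and 79.1 in ZR, 7 and 18.1 in ZR_GSK343, 68.0 and 62.1 in ZR_dmCitra, 19.5 and 19.3 in ZR_DMSO, 20.3 and 23.3 in Citraconate_50K, and 97.6 and 104 in DMSO_50K. Those fold values describe each list and are not comparable between lists.

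Between ZR and EV, lists were compared at an equal length of 34989 peaks. A region was called gained when both libraries of the first-named group and neither of the other had a peak in it, and lost in the opposite case. At the 7 genes 7 of 35 regions were gained and 1 was lost. Over the genome 22.0% of regions were gained and 19.4% lost in this contrast, which chose the genes and is a description here. Map2k6 had 6 of the 7 gained regions among its 11, and 0 lost. They lay 40.9 kb before the start and 3.7, 39.9, 51.3, 73.2 and 112.5 kb into the gene. None of the 6 had a peak in either deposited EV list. The other gained region lay 3.7 kb into Map2k4, at ranks 12017 and 26447 in ZR. The lost region lay 32.9 kb before Mapk11 inside Dennd6b, at ranks 21964 and 34374 in EV. The number lost was 5 without EV replicate 2, 3 without EV replicate 1 and 2 without ZR replicate 2, while the number gained was 7 or 8 with any single library left out. Here and below, leaving out a library loosens the rule, because the remaining library alone decides for its group. Such counts can hardly fall, so they are no measure of stability.

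The 6 Map2k6 regions gained in ZR could be looked up in the libraries that did not choose them. All 6 had a peak in both deposited lists of ZR_dmCitra and in both of DMSO_50K. Both Citraconate_50K lists had 4 of the 6, both ZR_GSK343 lists had 2 and both ZR_DMSO lists had 2. Of all 13270 regions gained in ZR, 81.2% had a peak in both deposited lists of ZR_dmCitra, 78.2% of DMSO_50K, 35.8% of Citraconate_50K, 7.3% of ZR_GSK343 and 14.1% of ZR_DMSO, so ZR_dmCitra and DMSO_50K held the most of all gained regions too. The 2 regions shared by both libraries of ZR_GSK343 and of ZR_DMSO were those 40.9 kb before the start and 112.5 kb into the gene. Single libraries differed with list length, since ZR_GSK343 replicates 1 and 2 had 2 and 5 of the 6, and ZR_DMSO replicates 1 and 2 had 2 and 4. In the strongest 12390 peaks of each list the numbers were 1 and 3 in ZR_GSK343, 4 and 4 in ZR_dmCitra, 2 and 3 in ZR_DMSO, 2 and 2 in Citraconate_50K and 6 and 6 in DMSO_50K. Of all gained regions those lists held 14% and 13.2% in Citraconate_50K, and the shares of the other groups are given where the labels are checked and beside the GSK343 results.

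A further region 145.5 kb after the first Map2k6 start, outside the gene, chr11:110544127-110545170, had a peak in all libraries but ZR_GSK343 replicate 1. Its ranks were 2154 and 1434 in ZR, against 21611 and 17861 in EV, so the peak was present in both groups but far stronger in ZR. The region 40.9 kb before the start, chr11:110357619-110358810, had ranks of 3163 and 1595 in ZR and no EV peak. The first Map2k6 start itself ranked 4184 and 5324 in ZR, against 12503 and 16046 in EV. The start 80.2 kb in had poorer ranks in ZR, with ranks of 18222 and 20798 in ZR, against 12504 and 12434 in EV. None of these pairs of ranks overlapped. Over all 14682 regions present in all 4 lists, 27.8% ranked better in both ZR libraries and 43.7% poorer.

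**Figure D2:**
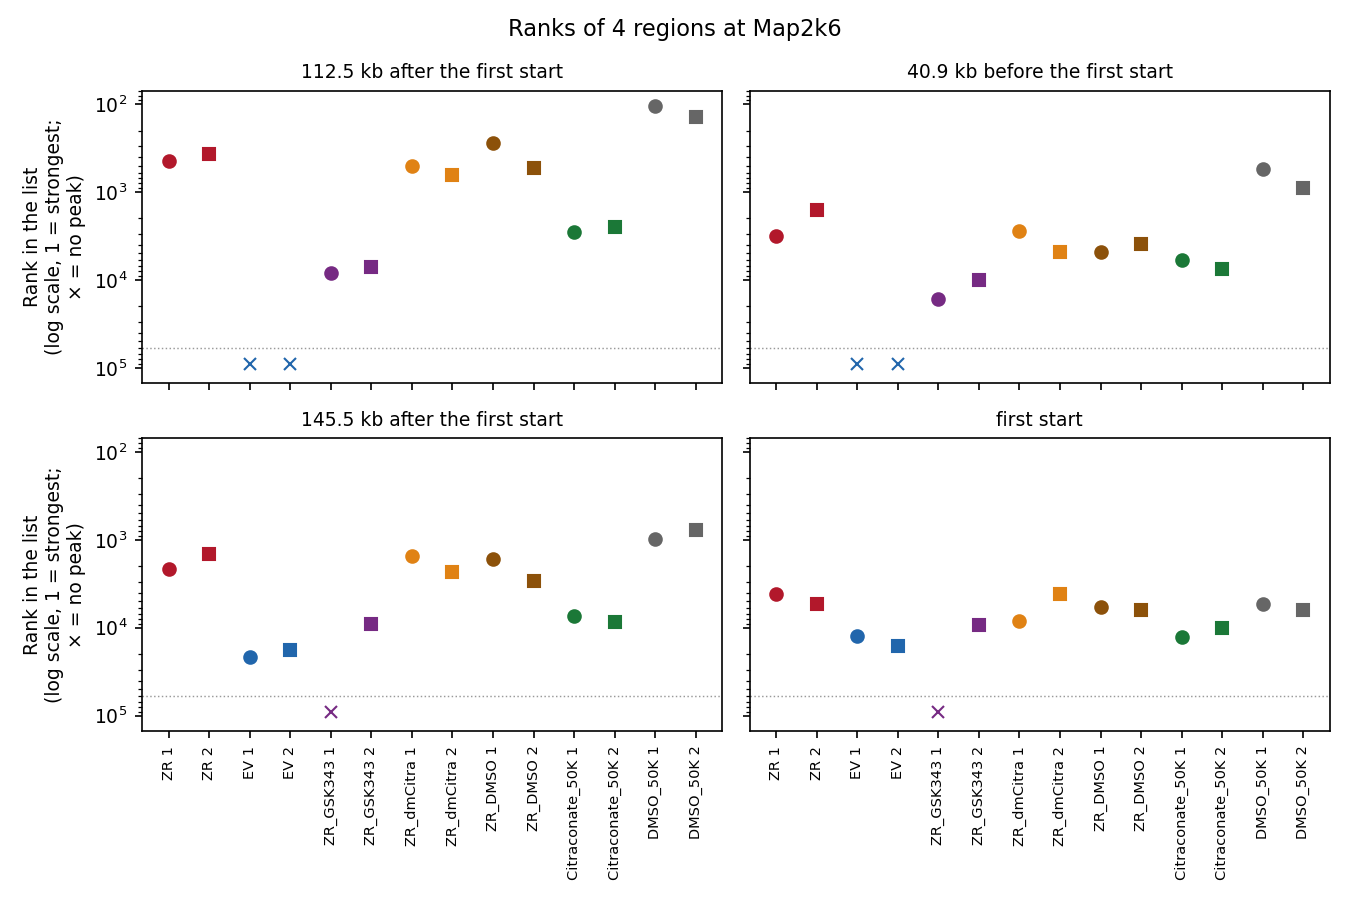
Rank of the peak in each library (y axis, log scale, strongest at the top) at 4 Map2k6 regions, with circles for replicate 1, squares for replicate 2, colours for the groups and crosses for no peak. At 112.5 kb into the gene ZR_GSK343 ranks 8331 and 7155, against 277 and 534 in ZR_DMSO, and Citraconate_50K ranks 2856 and 2511, against 106 and 139 in DMSO_50K.

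EZH2 inhibition was compared with DMSO in fusion cells. The region 112.5 kb into Map2k6 ranked poorer in both ZR_GSK343 libraries than in both ZR_DMSO libraries. Its log2 rank was 12.9 ± 0.155 in ZR_GSK343 and 8.59 ± 0.67 in ZR_DMSO (SD, n = 2 each), a rank 20.1 times as high (two-sided exact permutation p = 0.333, the smallest that 2 libraries against 2 can give). With 1 library left out in turn the ratio stayed between 14.5 and 27.9. As a share of its own deposited list the peak lay at 43.3% and 12.5% in ZR_GSK343, against 2.24% and 2.56% in ZR_DMSO, a ratio of 9.73. That scale, chosen after seeing the data, moves the median ratio of all shared regions to 0.430, against 0.887 for raw ranks. Among the 4679 regions present in all 4 lists, 22.0% ranked poorer in both ZR_GSK343 libraries and 31.0% better. A ratio as high as that of the Map2k6 region was reached by 0.128% of them, the Map2k6 region included. Of the 369 regions that were at least as strong in both ZR_DMSO libraries, 190 were poorer or without a peak in both ZR_GSK343 libraries, and 18, or 4.88%, had no ZR_GSK343 rank better than 7155 in the equal-length lists. The Map2k6 region was among those 18.

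Of the 13270 regions gained in ZR against EV, 146 were present in all 4 equal-length lists. Of those, 61.6% ranked poorer in both ZR_GSK343 libraries and 4.79% better, with a median rank ratio of 1.99, against 0.887 over all shared regions. The ratio of the Map2k6 region was reached by 0.685% of those 146, a share that is the Map2k6 region alone. In the strongest 12390 peaks 3.22% and 7.60% of fusion-gained regions had a peak in ZR_GSK343, against 17.5% and 20.0% in ZR_DMSO. List length and peak width also differed between these groups, and their part in the gap was not tested.

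Elsewhere at Map2k6, ZR_GSK343 replicate 1, the shorter list, lacked peaks that replicate 2 had. The first start had no peak in ZR_GSK343 replicate 1 and rank 9410 in replicate 2, against 5848 and 6250 in ZR_DMSO. The region 145.5 kb after the start likewise had no peak in replicate 1 and rank 9136 in replicate 2, against 1666 and 2925. The region 40.9 kb before the start ranked 16397 and 9990, against 4785 and 3883. As raw ranks the values with GSK343 were thus poorer at these 3 regions, but lists differ in length. As a share of its own list the first start lay at 16.4% in ZR_GSK343 replicate 2, against 47.2% and 29.9% in ZR_DMSO, which is the opposite order. The region 40.9 kb before the start lay at 85.2% and 17.5% in ZR_GSK343, against 38.6% and 18.6% in ZR_DMSO, so the groups overlapped on that scale. The region 145.5 kb after the start lay at 16% in ZR_GSK343 replicate 2, against 13.4% and 14% in ZR_DMSO, and so stayed poorer with GSK343. The region 39.9 kb into the gene differed from them, with no peak in replicate 1 but rank 6188 in replicate 2, the strongest Map2k6 peak of that list, against no peak and rank 12337 in ZR_DMSO.

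At the other members ranks were better with GSK343 or did not separate. The Mapk14 start ranked 6598 and 6038 in ZR_GSK343, against 12328 and 9062 in ZR_DMSO. The Natd1 start 18.3 kb before Map2k3 ranked 7260 and 6573 in ZR_GSK343, with no peak in ZR_DMSO, and was called gained. The region 12.1 kb after the Mapk12 start, in Hdac10, ranked 8534 and 10665 in ZR_GSK343, against no peak and rank 15156 in ZR_DMSO, and was the second gained region. The Map2k3 start ranked 7261 and 6758 in ZR_GSK343, against no peak and 5335 in ZR_DMSO, and did not separate. The Mapk11 start ranked 11144 and 12551 in ZR_GSK343 and had no ZR_DMSO peak in the deposited lists, yet was within the equal-length list of only 1 ZR_GSK343 library.

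At an equal length of 12390 peaks, 2 of 21 regions at the 7 genes were gained with GSK343 and 0 were lost. Over the genome 10.4% were gained and 7.69% lost, so the gained share lay near the background and the lost share below it. The loci held 11 and 18 peaks in ZR_GSK343, against 11 and 12 in ZR_DMSO, a difference of 3 within the spread between replicates (two-sided exact permutation p = 1). These peaks took 0.0978% and 0.127% of covered bases in ZR_GSK343, against 0.0845% and 0.0747% in ZR_DMSO. The counts depended on how lists were equalised. ZR_DMSO peaks were short, but the part of peak width in this was not tested. With lists of equal covered bases, 0 regions were gained and 6 lost, and the peak number was lower by 9 in ZR_GSK343. Without ZR_GSK343 replicate 1, or without either ZR_DMSO library, 4 were gained. The number lost was 3 without ZR_GSK343 replicate 2 and 1 without either ZR_DMSO library. Against ZR, whose peaks helped to choose Map2k6, 1 of 25 regions was gained and 2, both in Map2k6, were lost, beside 7.55% and 13.7% over the genome.

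Citraconate was compared with the same ZR_DMSO libraries, so its values share their control with those of GSK343. At Map2k6 the region 112.5 kb in did not separate. Its log2 rank was 9.16 ± 0.23 in ZR_dmCitra and 8.59 ± 0.67 in ZR_DMSO (SD, n = 2 each), a rank 1.49 times as high (two-sided exact permutation p = 0.667), with ratios of 1.07 to 2.06 when 1 library was left out. The ranks at 40.9 kb before the start were 2783 and 4789 in ZR_dmCitra, against 4785 and 3883 in ZR_DMSO. At 145.5 kb they were 1535 and 2335 in ZR_dmCitra, against 1666 and 2925 in ZR_DMSO. The first start ranked 8330 and 4139 in ZR_dmCitra, against 5848 and 6250 in ZR_DMSO. The groups overlapped at all 3. As a share of its own list each of the 4 regions instead ranked better in both ZR_dmCitra libraries, at 112.5 kb with a ratio of 0.533, on a scale that moves the median ratio of all shared regions to 0.288, against 0.802 for raw ranks.

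With citraconate 3 of 18 regions at the 7 genes were gained and 1 lost, against 12% gained and 7.44% lost over the genome. The gained regions lay 51.3 and 73.2 kb into Map2k6 and 12.1 kb after the Mapk12 start. Those in Map2k6 ranked 4589 and 4790, and 5925 and 6011, in ZR_dmCitra. ZR_DMSO had no deposited peak at the first of them, and 1 peak at rank 14732 in replicate 2 at the second. ZR, by contrast, had both, at ranks 5025 and 7864 and at ranks 8828 and 8468. The lost region was the Mapk14 start, at ranks 17868 and 18432 in ZR_dmCitra, against 12328 and 9062 in ZR_DMSO, so the peak was present but fell outside the equal-length lists. As a share of its own list it lay at 39.1% and 41.9% in ZR_dmCitra, against 99.5% and 43.4% in ZR_DMSO, which is the opposite order. With lists of equal covered bases 0 regions were gained and 4 lost. The loci held 12 and 13 peaks in ZR_dmCitra, against 11 and 12 in ZR_DMSO (two-sided exact permutation p = 0.667), and under equal covered bases the number was lower by 8 in ZR_dmCitra. As deposited, 11 regions were gained and 0 lost. Without ZR_DMSO replicate 1, 5 were gained and 4 lost, and without ZR_DMSO replicate 2, 2 were lost.

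Set against ZR, whose lists resemble it in length and width, ZR_dmCitra differed little in the presence of peaks at these genes. At an equal length of 44033 peaks 3 of 38 regions were gained, 1.0 kb before Map2k3, 47.8 kb into Map2k4 and 6.7 kb before Map2k4, and 1 was lost, 20.3 kb before Mapk11 inside Plxnb2. All had ranks of 21018 or poorer in both libraries behind the call, and 4.82% and 5.32% of all regions were gained and lost. At Map2k6 0 of 16 regions were gained or lost, and its region 112.5 kb in ranked 511 and 640 in ZR_dmCitra, against 444 and 365 in ZR. It thus ranked poorer in both ZR_dmCitra libraries, as did 27.0% of all 28876 shared regions, while 28.6% ranked better. By raw rank the regions 3.7 and 39.9 kb in were also poorer, and those 51.3, 73.2 and 80.3 kb in were better. The other shared Map2k6 regions overlapped.

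In the second series the Map2k6 regions shared by all 4 lists ranked poorer in Citraconate_50K, while the Map2k3 and Mapk14 starts ranked better. All 7 Map2k6 regions present in all 4 equal-length lists ranked poorer in both Citraconate_50K libraries than in both DMSO_50K libraries, against 25.0% of all 15761 such regions. The 7 lie at the same gene and were read in the same libraries, so they are not independent of each other. Those 40.9 kb before the start and 39.9, 51.3 and 112.5 kb in were fusion-gained, and 44.1% of fusion-gained regions in all 4 lists ranked poorer. The rank at 112.5 kb was 22.1 times as high, with a log2 rank of 11.4 ± 0.131 in Citraconate_50K and 6.92 ± 0.276 in DMSO_50K (SD, n = 2 each; two-sided exact permutation p = 0.333, the smallest possible). With 1 library left out the ratio stayed between 19.3 and 25.3, and 0.279% of shared regions, this one included, reached 22.1. The best rank of the 64 regions, by which this one was introduced, is the 106 of DMSO_50K itself. The 0.279% is therefore a description. As a share of its own list the ratio was 40.7, beside a median of 1.47 over all shared regions, and all 7 regions still ranked poorer in both Citraconate_50K libraries. The ranks at 40.9 kb before the start were 6008 and 7607 in Citraconate_50K, against 544 and 905 in DMSO_50K. At 145.5 kb they were 7441 and 8691 in Citraconate_50K, against 978 and 770 in DMSO_50K. The first start ranked 12596 and 10030 in Citraconate_50K, against 5413 and 6304 in DMSO_50K. At the other 3 regions the rank ratios were 2.43 (39.9 kb), 1.97 (51.3 kb) and 1.71 (80.3 kb).

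Regions near the top of a list have little room to rank better, so the same was counted among regions as strong. Of the 120 regions that ranked 139 or better in both DMSO_50K libraries, 75 were poorer or without a peak in both Citraconate_50K libraries, and 2, or 1.67%, had no rank better than 2511 there. The Map2k6 region was among those 2. Of 3588 fusion-gained regions in all 4 lists 44.1% ranked poorer and 24.5% better, with a median ratio of 1.17, against 0.794 over all shared regions.

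Several regions at the other members ranked better in Citraconate_50K. The Map2k3 start ranked 4588 and 4811 in Citraconate_50K, against 15966 and 21885 in DMSO_50K. The Mapk14 start ranked 4658 and 7221 in Citraconate_50K, against 14101 and 17425 in DMSO_50K. The only region at Mapk13, at the start of its neighbour Brpf3, ranked 4984 and 6739 in Citraconate_50K, against 12395 and 12561 in DMSO_50K. These pairs did not overlap, which held in this direction for 46.4% of all shared regions. As a share of the list the Brpf3 pair did overlap, at 15.7% and 22.9% in Citraconate_50K, against 23.5% and 20.8% in DMSO_50K. The Map2k4 start overlapped, at 4589 and 2717 in Citraconate_50K, against 8970 and 4564 in DMSO_50K, and so did the Plxnb2 and Dennd6b starts near Mapk11. The 3 shared regions after Mapk12 ranked better in Citraconate_50K by raw rank, but as a share of the list 2 overlapped, and the one 12.1 kb after the start lay at 43.8% and 46.7% in Citraconate_50K, against 43.0% and 34.0% in DMSO_50K.

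By presence, 3 of 35 regions were gained in Citraconate_50K and 2 lost, against 9.05% and 16.8% over the genome. The gained regions were the Natd1 start, a region 1.7 kb into Map2k3 and one 28.3 kb into Map2k6, and each had a peak in both deposited DMSO_50K lists below the equal-length limit of 29432 peaks. As deposited 0 were gained and 4 lost. Without either Citraconate_50K library 6 were gained, without DMSO_50K replicate 2, 5 were gained, and with equal covered bases 7 were gained. The lost regions lay 3.7 kb into Map2k4 and 3.7 kb into Map2k6, with no peak in either deposited Citraconate_50K list. They ranked 16723 and 10319, and 9379 and 6124, in DMSO_50K. Both had also been gained in ZR against EV. The loci held 31 and 31 peaks in Citraconate_50K, against 25 and 26 in DMSO_50K, a difference of 5.5 (two-sided exact permutation p = 0.333, the smallest possible), and with lists as deposited the difference was -8.

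**Figure D3:**
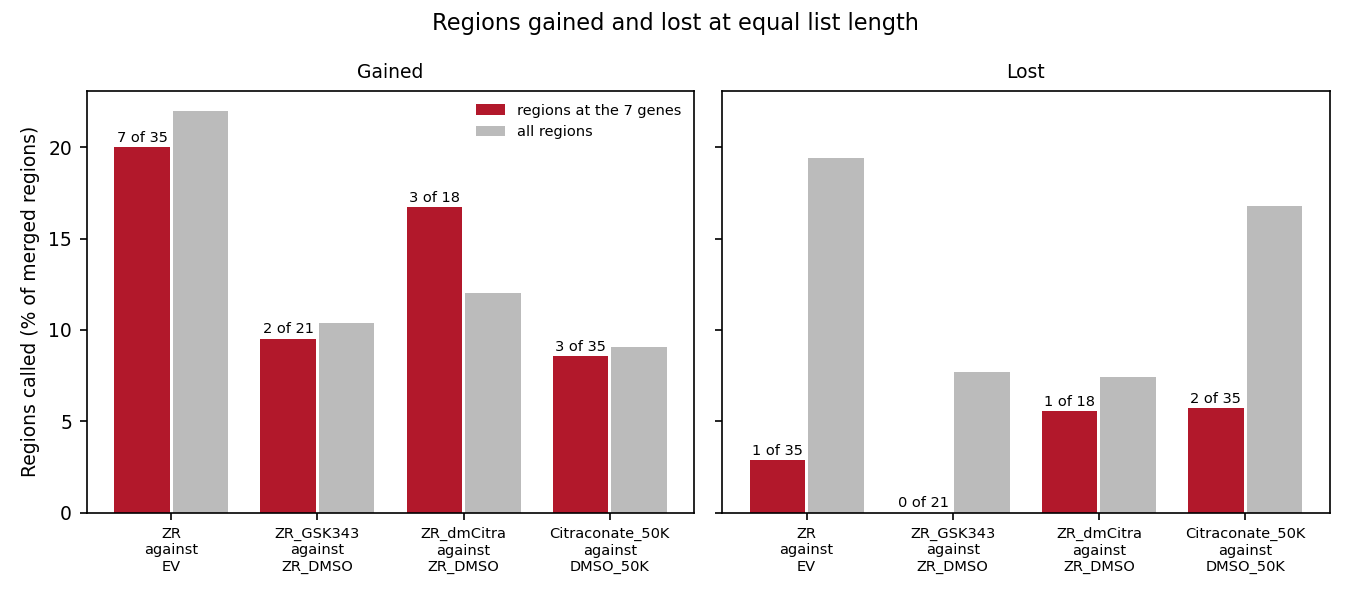
Percentage of merged regions gained and lost at equal list length in the 4 comparisons, for regions at the 7 genes (left bars, with counts above) and all regions (right bars). The gained shares at the 7 genes were 20.0%, 9.52%, 16.7% and 8.57%, beside 22.0%, 10.4%, 12% and 9.05% of all regions.

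The kinase gene starts themselves were open in most libraries. The first start had a deposited peak in 14 libraries at Mapk14, 13 each at Map2k3, Map2k4 and Map2k6, 12 at Mapk11, 11 at Mapk12 and 0 at Mapk13. At the other 6 genes missing peaks fell in ZR_DMSO, except 1 each at Map2k6 and Mapk12 in ZR_GSK343 replicate 1. The Map2k4 start ranked 5022 and 4790 in ZR, against 3183 and 6672 in EV. The Map2k3 start ranked 22478 and 16862 in ZR, against 7169 and 9152 in EV. The Mapk14 start ranked 20424 and 10850 in ZR, against 11123 and 6977 in EV. Of these 3 only Map2k3 had no overlap between the groups. The start peaks of Mapk11 and Mapk12, which lie next to each other, had ranks of 11144 or poorer in every library that had them. The Mapk11 start ranked 17490 and 28589 in ZR, against 17079 and 26994 in EV. The Mapk12 start ranked 31058 and 28588 in ZR, against 31818 and 34373 in EV.

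**Figure D4:**
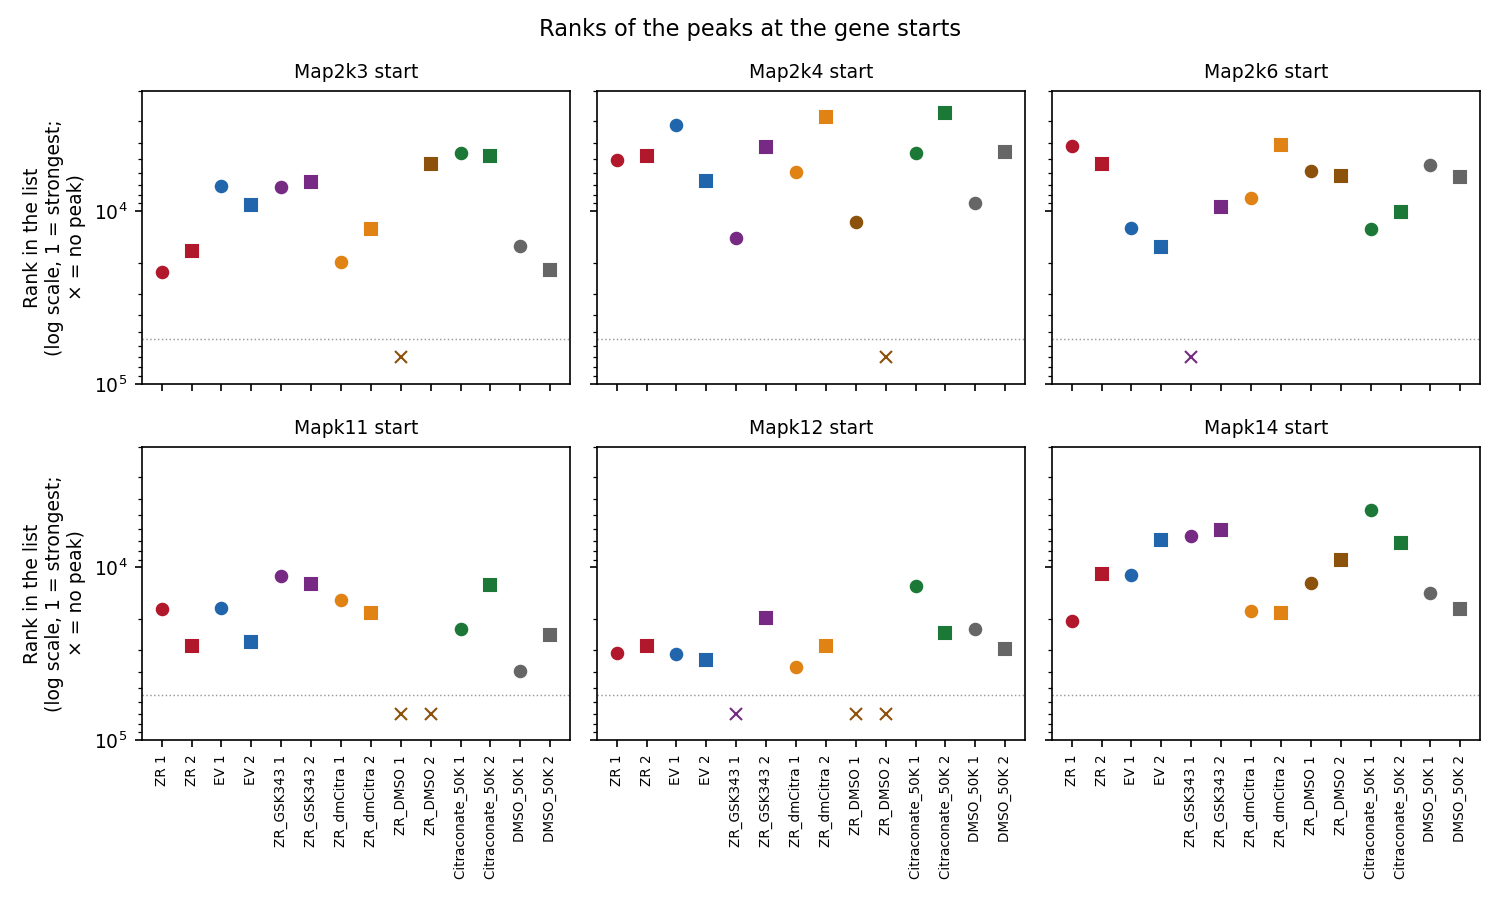
Rank of the strongest peak at the first start of 6 of the 7 genes in each library (y axis, log scale, strongest at the top), with circles for replicate 1, squares for replicate 2 and crosses for no deposited peak. Map2k6 ranks better in ZR (4184 and 5324) than in EV (12503 and 16046), and Map2k3 poorer (22478 and 16862, against 7169 and 9152).

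The wider pathway was read from gene starts, using a list of 57 genes of which 52 had an annotated start. In ZR against EV 51 had a peak within 1 kb of a start, 0 gained one and 2 lost one, against 2.56% and 6.15% of all protein-coding genes with a peak. The 2 were Map3k6 and Taok1, both upstream kinases of the cascade, which ranked 15058 and 10699, and 15524 and 17832, in EV. Both deposited ZR lists still had a Taok1 peak and 1 had a Map3k6 peak. The starts of the other MAP3K genes, of the p38 targets and of the phosphatases were neither gained nor lost. Without ZR replicate 2 the number lost was 4, without EV replicate 2 the number gained was 1, and with lists as deposited 0 were lost.

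With GSK343 7 of 48 pathway genes gained a start peak and 0 lost one, against 19.8% and 0.258% of all genes with a peak, so the gained share was below the background. They were the upstream kinases Map3k1, Map3k20 and Taok1, the ERK-route kinases Map2k1 and Map2k2, and the phosphatases Dusp1 and Dusp8. Dusp1, which dephosphorylates p38 and JNK, ranked 5028 and 4810 in ZR_GSK343 and had no peak in ZR_DMSO. Against ZR 4 of 50 were gained and 0 lost, among them Taok1 and Map3k20 again and the p38-activated kinase gene Rps6ka4. That compares with 9.97% of all genes gained and 0.908% lost against ZR. With equal covered bases against ZR_DMSO 1 was gained and 2 were lost. The number gained was 11 without ZR_GSK343 replicate 1 and 12 without either ZR_DMSO library, and the number lost was 2 without ZR_GSK343 replicate 2 and 1 without ZR_DMSO replicate 2.

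With citraconate 3 of 40 pathway genes gained a start peak and 0 lost one, against 10.4% and 1.37% of all genes. They were Map3k1, Gadd45g, which encodes an activator of the upstream kinase MEKK4, and Mknk1, a kinase downstream of p38 and ERK. Against ZR 0 of 51 were gained and 0 lost, against 0.856% of all genes gained and 0.856% lost. With equal covered bases 0 were gained and 8 lost. Without either ZR_DMSO library 5 were gained, and the number lost was 2 without its replicate 1 and 4 without its replicate 2. In Citraconate_50K against DMSO_50K 1 of 51, Map3k20, gained a start peak and 0 lost one, against 7.42% and 0.776% of all genes. Without DMSO_50K replicate 1, 4 were gained and 1 lost, and without its replicate 2, 2 were gained.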

How the data were processed

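ATAC-seq was run on 14 libraries of mouse neural stem cells, 2 per group, as paired 50 nt reads per the labels' protocols. The submitters' processing notes name BWA, SAMtools, Picard and mm10. The authors called peaks library by library with MACS2, going by peak names in each deposited list. Caller settings and any read shift for the Tn5 offset were not given in the sources used here. For every peak the deposited lists hold the authors' score, fold enrichment (a ratio), −log10 p-value and −log10 q-value, and a summit offset. They were used only to rank and describe peaks within a list, with ties ordered by p, fold and position. No counts were used here, so depth is unknown and no counting interval is given.

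Only peaks on chromosomes 1 to 19, X and Y were kept. In each comparison the strongest peaks by −log10 q were taken from all 4 lists, as many as the shortest list had, then merged, and a region was called by overlap of at least 1 bp. Genes and starts came from RefSeq tables of GRCm38.p6. A rank ratio is the geometric mean rank of the first-named group over that of the other. Differences in peak number and log2 rank were tested by two-sided exact permutation, whose smallest p is 0.333. The calling code was checked on simulated lists of similar length and width. The real lists differ in both, so that check does not measure how accurate the calls are here. All called regions at the loci, up to 10 per direction, and up to 4 pathway genes per role and direction were named by rule. Further regions and the counts of equally strong and of fusion-gained regions were chosen after their values were seen. The members and lists were chosen with earlier results of these data known. Python 3.11.15, pandas 2.3.3, NumPy 2.4.6 and matplotlib 3.10.9 were used. The alternatives tried were 50% overlap, a −log10 q minimum of 5, lists at their deposited length, flanks of 10 kb or none, windows of 500 bp and 2 kb, ZR in place of ZR_DMSO, pairing by replicate number, leaving out each library and, added after the data were seen, equal covered bases and ranks as a share of a list.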

Additional observations from a re-analysis of the deposited data

Results flagged for a closer look

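Citraconate was tested in both library series, under the title dmCitra in the first and Citraconate in the second. In equal-length lists every library at 3 regions moved one way in the first series and the other way in the second. In the first series the calls by presence depended on the control and the setting. With equal covered bases the number of ZR_dmCitra libraries with a peak minus that of ZR_DMSO libraries was 0 at both Map2k6 regions, and with ZR in place of ZR_DMSO it was 0 at all 3 regions. With lists as deposited it was 1 at 73.2 kb into Map2k6 and 0 at the Mapk14 start. By rank, the regions 51.3 and 73.2 kb into Map2k6 were better in ZR_dmCitra than in ZR too. Their ZR ranks were 5025 and 7864, and 8828 and 8468, though ZR helped to choose Map2k6. The Mapk14 start overlapped between ZR_dmCitra and ZR. The difference between the series was not tested, and in the second series it cannot be told apart from the cell-line label. At 51.3 kb into Map2k6 the ranks in equal-length lists were 4589 and 4790 in ZR_dmCitra with no peak in ZR_DMSO, but 13683 and 19325 in Citraconate_50K, against 7253 and 9408 in DMSO_50K. At 73.2 kb into Map2k6 they were 5925 and 6011 in ZR_dmCitra with no peak in ZR_DMSO, but no peak and 21395 in Citraconate_50K, against 6961 and 8302 in DMSO_50K. At the Mapk14 start there was no peak in the equal-length ZR_dmCitra lists, against 12328 and 9062 in ZR_DMSO, but 4658 and 7221 in Citraconate_50K, against 14101 and 17425 in DMSO_50K. Both deposited ZR_dmCitra lists had this peak, at 39.1% and 41.9% of the list, against 99.5% and 43.4% in ZR_DMSO. On that scale it lay at 14.7% and 24.5% in Citraconate_50K, against 26.8% and 28.9% in DMSO_50K, so the 2 series went the same way.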

How the results depend on the processing

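At 112.5 kb into Map2k6 the ranks did not overlap in ZR_GSK343 against ZR_DMSO or in Citraconate_50K against DMSO_50K. Leaving out 1 library could therefore change only the size of these rank ratios, not their direction or separation. Direction and separation were also kept with rank as a share of the deposited list, chosen after seeing the data, at 9.73 and 40.7. In ZR_dmCitra against ZR_DMSO that scale turned the ratio to 0.533. The counts of called regions depended on the settings, and the causes were not tested. With lists as deposited, ZR_dmCitra against ZR_DMSO had 11 regions gained, 0 lost and 12 pathway starts gained, ZR against EV had 0 pathway starts lost, and Citraconate_50K against DMSO_50K had 0 regions gained, 4 lost, a peak number difference of -8, and 0 pathway starts gained and 1 lost. With −log10 q of at least 5, ZR against EV had 1 pathway start gained, ZR_dmCitra had 0 regions lost, and Citraconate_50K had 5 regions and 4 pathway starts gained. With 50% overlap, regions gained were 7 in ZR_GSK343 and 10 in ZR_dmCitra, and 5 were lost in Citraconate_50K. With a 10 kb flank 0 were lost in ZR against EV and 1 was gained in ZR_GSK343, and with gene bodies alone both numbers were 0. With a 2 kb window 1 pathway start was lost in ZR_GSK343. With ZR in place of ZR_DMSO, ZR_GSK343 had 1 region gained, 2 lost, a peak number difference of -2 and 4 pathway starts gained, and ZR_dmCitra had 0 pathway starts gained. With equal covered bases, chosen after seeing the data, ZR against EV had 2 regions lost. ZR_GSK343 then had 0 gained, 6 lost, a difference of -9, and 1 pathway start gained and 2 lost. ZR_dmCitra had 0 gained, 4 lost, a difference of -8, and 0 pathway starts gained and 8 lost, and Citraconate_50K had 7 regions and 9 pathway starts gained.

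Leaving out 1 library, which loosens the calling rule and so favours higher counts, gave these ranges. In ZR against EV 1 to 5 regions were lost, and 0 to 1 pathway starts were gained and 2 to 4 lost. In ZR_GSK343 3 to 4 regions were gained and 0 to 3 lost, with a peak number difference of -0.5 to 6.5, and 8 to 12 pathway starts were gained and 0 to 2 lost. In ZR_dmCitra 3 to 5 regions were gained and 1 to 4 lost, and 3 to 5 pathway starts were gained and 0 to 4 lost. In Citraconate_50K 4 to 6 regions and 1 to 4 pathway starts were gained, and 0 to 1 pathway starts were lost.

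Pairing by replicate number, used as a replicate block, left these counts unchanged by construction, since a call needs both pairs, and raised the smallest exact permutation p for peak number to 0.5. The deviations of same-numbered libraries correlated by 0.0162, 0.072, -0.0114 and -0.0486 in the 4 comparisons. These values gave no sign of pairing by number, but 2 libraries per group cannot show that it was absent. Blocked values were 7 gained and 1 lost in ZR against EV, 2 and 0 in ZR_GSK343, 3 and 1 in ZR_dmCitra and 3 and 2 in Citraconate_50K. The lists give no depth, no exact permutation test over 2 libraries per group can pass the 0.05 threshold, and a missing peak does not show closed chromatin.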
